A study of Rattus norvegicus with 15 samples.

Results

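The comparison described here set 3 retinas that had received DPSC cells and then sodium iodate against 3 Sham retinas that had received sodium iodate without cells. These 6 libraries belong to a series of 15 retinal mRNA libraries in 5 groups of 3, the others being untreated retinas (NT, labelled healthy) and retinas given MSC or MSCEPO cells. All came from wild-type Sprague-Dawley rats, labelled as 12 weeks old and as day 31 after transplantation, although the series' design text gives 31 days as the age. Sodium iodate, an oxidant that kills the retinal pigment epithelium and then the photoreceptors, was given systemically at 40 mg/kg to every group except NT. By the labels, cells were injected into the vitreous at 100000 cells per µl in Hank's balanced saline, and the Sham eyes received this vehicle. Rats with xenografts also received dexamethasone (2 mg/kg) before surgery and oral cyclosporin (10 mg/kg/day) after it. The labels do not say that the Sham rats had either drug, so the cells and the immunosuppression cannot be told apart. The study's methods, which do not describe the DPSC group, give a lower cell density and another cyclosporin dosing than the labels, and which holds for these rats is not settled here. The sources used here neither spell out DPSC nor give the species of these cells. The study speaks of its libraries as biological replicates, while the labels tie none of them to an animal, and the p-values measure the spread between these libraries. Levels are on the rlog scale, a log2 scale of normalized counts on which low genes are pulled toward their mean, and a gene was tested when its mean level over the 6 libraries reached the log2 of about 10 normalized counts. Of the 20375 genes listed, 15405 were tested, 930 of them without a symbol. The question asked was which genes stood at another level in the retinas given DPSC cells.

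The retina turns light into a neural signal in rods and cones. In rods, light leads to activation of the G protein transducin, transducin activates a phosphodiesterase that lowers cyclic GMP, and arrestin, the kinase GRK1 and RGS9 end the response. The retinal pigment epithelium feeds the photoreceptors and recycles their chromophore, and when it dies the photoreceptors follow, while Müller glia take up glutamate, move water and turn reactive, and microglia and blood-derived leukocytes gather. The lens lies in front of the vitreous and its fibre cells are filled with crystallins, whereas the surface of the eye (cornea and conjunctiva) is a stratified epithelium built on keratins and mucins. Neither of these belongs to the retina, so their genes serve as markers of other tissues in a retinal library. Each library measures bulk RNA, in which fewer cells of a type and less RNA per cell cannot be told apart.

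3 promoters are printed first, because the genes of the lens and of the surface epithelium gave the largest differences between the groups. Cryaa was the crystallin with the highest level, Krt12 had the largest difference of a keratin and Krt4 the smallest p of all genes tested. Each stretch is 300 bases long, from 250 before the RefSeq start to 50 after it (build GRCr8), at chr20:9784661-9784960 on the plus strand for Cryaa, chr10:84874216-84874515 on the minus strand for Krt12 and chr7:134930664-134930963 on the minus strand for Krt4. Capitals mark a MAF half-site (TGCTGA), an AP-1 site (TGAGTCA) or a TATA box (TATAAA), each on either strand.
Cryaa: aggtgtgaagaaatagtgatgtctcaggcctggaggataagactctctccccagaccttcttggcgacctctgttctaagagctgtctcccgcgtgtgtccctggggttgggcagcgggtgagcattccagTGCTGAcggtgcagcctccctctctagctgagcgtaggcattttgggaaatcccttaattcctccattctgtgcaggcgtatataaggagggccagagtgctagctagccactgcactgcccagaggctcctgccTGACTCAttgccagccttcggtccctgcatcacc
Krt12: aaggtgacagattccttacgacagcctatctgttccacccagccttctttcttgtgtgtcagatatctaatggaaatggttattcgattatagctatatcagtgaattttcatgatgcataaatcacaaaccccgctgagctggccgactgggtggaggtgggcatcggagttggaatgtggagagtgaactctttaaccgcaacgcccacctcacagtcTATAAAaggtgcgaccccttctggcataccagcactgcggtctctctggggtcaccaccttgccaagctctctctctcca
Krt4: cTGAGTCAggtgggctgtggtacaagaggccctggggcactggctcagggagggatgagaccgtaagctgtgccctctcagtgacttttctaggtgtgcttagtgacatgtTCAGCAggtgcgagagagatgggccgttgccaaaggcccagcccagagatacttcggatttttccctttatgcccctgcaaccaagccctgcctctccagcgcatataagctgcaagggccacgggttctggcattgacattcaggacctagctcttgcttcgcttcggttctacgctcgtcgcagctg
A RefSeq promoter was found for 22 of the 25 lens genes tested and for 19 of the 26 surface epithelium genes tested. The MAF half-site was in 10 of the 22 lens promoters (45.5%) and in 5 of the 19 epithelial ones (26.3%), beside 18.4% of all 33469 promoters of this length. The AP-1 letters were in 4 of the 22 lens promoters (18.2%) and 5 of the 19 epithelial promoters (26.3%), beside 4.63% of all. The TATA box letters were in 18.2% of the lens, 21.1% of the epithelial and 14.2% of all promoters. These matches describe letters in a window and not bound sites.

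The 3 DPSC libraries were unlike each other. DPSC 2 lay nearest to MSCEPO 1 (Euclidean distance 27.5 over all 20375 genes listed), farther from DPSC 1 (65.6) and from DPSC 3 (72.2). DPSC 1 and DPSC 3 were 44.9 apart, and each lay nearest to a Sham library. The label of DPSC 2 was kept, but it could not be checked with a gene that marks the injected cells. Each DPSC mean below therefore rests on that label. Values without DPSC 2 are given beside many, but not all, of the results that depend on it. The Sham libraries were 32.1 to 36.7 apart. In a principal component analysis of the 6 libraries over the 500 most variable genes, the first component (56.1% of the variance) set DPSC 2 at 37.44 against -14.11 and -15.99 for DPSC 1 and 3, with Sham between -4.82 and 0.81. Lens genes such as Crygb and Crygc led one end of it. The second component (21.9%) set the DPSC libraries (7.65 to 15.37) apart from Sham (-12.43 to -9.97), with Krt12, Krt5, Krt13 and Krt4 leading the Sham end and Crygd the DPSC end. The retinal identity was plain in all 6 libraries, with Gnat1, the α subunit of rod transducin, at 15.21 or above. The depth of the libraries is unknown, since no counts were used here.

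No gene passed the test between DPSC and Sham in limma (adjusted p under 0.05 and a difference over 2-fold, 0% of those tested), and the smallest adjusted p was 0.292. Before adjustment, 265 genes were higher in DPSC at p under 0.05 (1.72% of the genes tested) and 328 were lower (2.13%). Over 2-fold higher were 113 genes (0.734%), of which 60 have no symbol and 22 are on the lens list. Over 2-fold lower were 39 genes (0.253%), of which 11 are on the surface epithelium list. In 721 genes every DPSC library lay above every Sham library (4.68%), and in 781 every one lay below (5.07%). Both conditions together, over 2-fold and without overlap, held for 22 genes higher and 28 lower. The median difference over all genes tested was 0.006. The mean values and p-values given below are therefore descriptions of these 6 libraries, and each difference is DPSC minus Sham on the rlog scale.

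**Figure D1:**
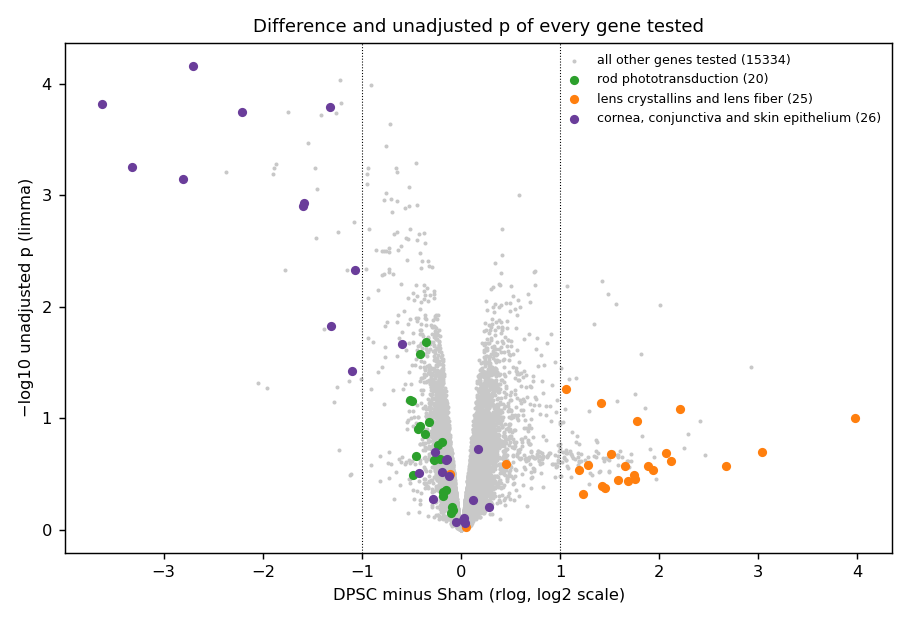
Difference of the group means (DPSC minus Sham, rlog, log2 scale) against −log10 of the unadjusted p from limma for each of the 15405 genes tested, 1 point a gene, with dotted lines at a difference of 1 in either direction. The surface epithelium genes (purple) reach the upper left, Krt12 standing at -3.62, the lens genes (orange) lie far right at larger p-values and the 20 rod genes (green) all lie left of 0.

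The genes of the eye's surface epithelium stood lower in DPSC than in Sham, with no overlap between the groups for several keratins and a mucin. Krt12 (ENSRNOG00000011986), the keratin that marks the corneal epithelium, stood at 7.02, 6.32 and 6.18 in DPSC 1, 2 and 3 and at 9.09, 10.95 and 10.33 in Sham. The groups did not overlap, and the difference of -3.62 (SE 0.47) had an adjusted p of 0.292. Krt5, the keratin of basal cells of stratified epithelia, stood at 6.73, 6.0 and 5.36 in DPSC and at 8.28, 10.21 and 9.55 in Sham, a difference of -3.32 (SE 0.54, adjusted p = 0.414). Krt4, a keratin of the layers above the basal cells in mucosal epithelia such as the conjunctiva, stood at 5.24, 5.34 and 5.01 in DPSC against 7.59, 8.64 and 7.46 in Sham. Its difference was -2.70 (SE 0.31), with the smallest unadjusted p of all genes (6.86e-05) and an adjusted p of 0.292. Muc4, a mucin tethered to the membrane of surface cells, was at 6.74, 6.78 and 5.68 in DPSC and at 8.46, 8.73 and 8.65 in Sham, so that every DPSC library lay below every Sham library here too.

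Over the whole list of 26 tested surface epithelium genes, 20 means were lower in DPSC and 6 higher, and 11 were lower over 2-fold, beside the 0.253% of all genes. In 10 of the 26 all DPSC libraries lay below all Sham libraries, beside 5.07% of all genes. Lower at an unadjusted p under 0.05 were 12 of the 26, beside 2.13% of all genes. The median difference was -0.35. It remained on that side without DPSC 1 (-0.62), without DPSC 2 (-0.35) and without DPSC 3 (-0.31). Other members that were lower without overlap were Krt75 (-1.32), Krt13 (-2.81), Dsp, which encodes the desmosome linker desmoplakin (-1.59), and Elf3, an epithelial transcription factor (-1.60). Perp (-1.08) was lower without overlap too. Not every member showed such a gap. Aldh3a1, listed as a cornea gene, differed by -1.10 but overlapped, at 8.82 in DPSC 1 and 8.55 in Sham 1. Epcam differed by -0.12, and Cdh1, which encodes E-cadherin, was 7.39 to 9.55 in DPSC and 7.67 to 8.61 in Sham.

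NT libraries held these genes at levels between or near those of both groups. Krt12 was at 6.73, 9.18 and 9.09 in NT and Krt4 at 6.03, 6.95 and 5.95. The mean level of the 26 genes, set against the Sham mean, was -0.93, -0.48 and -0.81 in NT, -0.34, 0.31 and 0.03 in Sham and -0.70, -0.91 and -1.19 in DPSC, so the Sham libraries were the highest of these 3 groups. In MSC it was -0.26, -0.53 and -0.54 and in MSCEPO -1.15, -0.69 and -0.23. How much surface tissue each retinal sample held, and its part in this difference, was not tested.

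**Figure D2:**
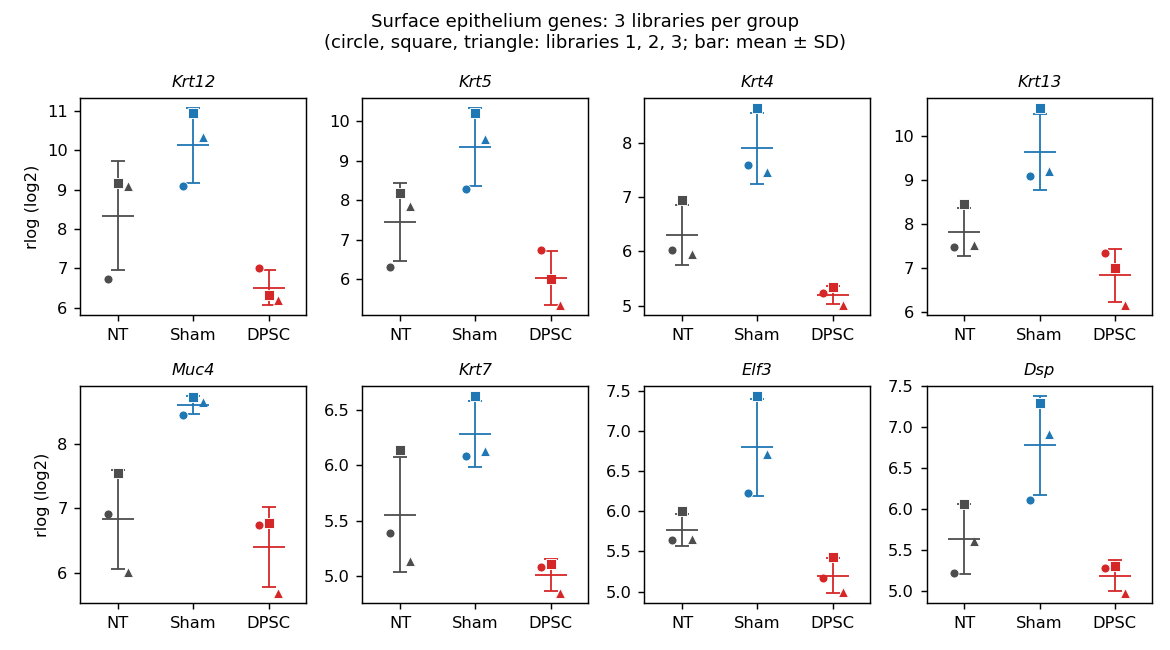
Levels (rlog, log2 scale) of 8 surface epithelium genes in the NT, Sham and DPSC libraries, 3 per group, with a symbol per library and a bar for the mean ± SD. In each panel the 3 DPSC points lie below the 3 Sham points, and for Krt12 the DPSC libraries span 6.18 to 7.02 and the Sham libraries 9.09 to 10.95.

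Further genes known from stratified or mucosal epithelia were among the 12 leading lower genes outside that list. Krt7, a simple-epithelium keratin, was 5.08, 5.11 and 4.85 in DPSC and 6.09, 6.62 and 6.13 in Sham (-1.27, SE 0.17, adjusted p = 0.292). Krt80 differed by -1.86 (SE 0.30), and Plet1, which marks epithelial progenitor cells, by -1.75 (SE 0.24). Upk3bl1, a uroplakin-like gene (-1.21), the serine protease gene Prss27 (-1.42) and Lypd2 (-1.54) were likewise lower without overlap. These 6 genes stood between 4.67 (Prss27 in DPSC 3) and 8.43 (Plet1 in Sham 2), far under the rod gene Gnat1 (15.21 or above).

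RGD1560925 (ENSRNOG00000011042), a gene with no common name in the files, stood apart from the epithelial genes by its level. It was at 11.86, 11.52 and 11.91 in DPSC 1, 2 and 3 and at 12.96, 12.80 and 13.20 in Sham, with NT at 12.84, 13.08 and 13.08. The DPSC libraries thus all lay below Sham and NT, which overlapped each other. The level was also low in the other cell-treated groups, with a mean of 11.85 in MSC and 12.17 in MSCEPO beside 11.76 in DPSC and 12.99 in Sham. The difference was -1.22 (SE 0.15, adjusted p = 0.292). With all 15 libraries in one fit RGD1560925 and Krt75 were the 2 genes that passed, both with an adjusted p of 0.0291.

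The lens genes were the largest differences in the other direction, but they rested on 2 of the 3 DPSC libraries. Cryaa (ENSRNOG00000047175), which encodes αA-crystallin, the main small heat shock protein of the lens, stood at 18.21 in DPSC 1 and 17.50 in DPSC 3 but at 11.67 in DPSC 2, with Sham at 14.31, 15.17 and 14.22 and NT at 10.73, 14.11 and 13.48. DPSC 1 and 3 were thus above every Sham library and DPSC 2 below every one, and the difference of 1.23 had an SE of 1.62 (adjusted p = 0.968). Crygd (ENSRNOG00000032219), which encodes a γ-crystallin of the fibre cells, was at 14.43, 5.95 and 13.50 in DPSC 1, 2 and 3 and at 7.38, 6.89 and 7.69 in Sham. Mip, which encodes the water channel of the fibre cell membrane, was at 13.09, 8.53 and 12.14 in DPSC against 8.71 to 9.36 in Sham. Dnase2b, the nuclease that clears the DNA of maturing fibre cells, was near the minimum in Sham (3.38 to 3.40) and in DPSC 2 (3.29), and at 5.13 and 4.91 in DPSC 1 and 3. Cryab and Crybb2 had the same order of libraries.

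Of the 25 lens genes tested, 24 means were higher in DPSC and 22 were higher over 2-fold, beside 0.734% of all genes, yet in none did the groups separate. The mean level of the list against the Sham mean was 3.74 in DPSC 1, -1.73 in DPSC 2 and 2.91 in DPSC 3, with Sham from -0.19 to 0.20 and NT from -2.01 to -0.36. The median difference was 1.66 over the 3 libraries and 3.57 without DPSC 2, but 0.60 without DPSC 1 and 0.93 without DPSC 3. Without DPSC 2, 23 genes passed the test as higher and 2 as lower. Of these 23, 17 were on the lens list, led by Crygd (6.64, adjusted p = 0.00421), Crygb and Crygc. The other 6, which are on none of the lists, were S100a4 (1.95), Fabp5 (3.24), Lgsn (4.49), Clic5 (2.72), Wnt7a (1.72) and Lenep (4.20). Of these 6, Lgsn and Lenep stood among the crystallins at the lens end of the first component. The 2 lower genes were LOC100911034 and Mab21l4. How much lens tissue each retinal sample held, and its part in these differences, was not tested.

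**Figure D3:**
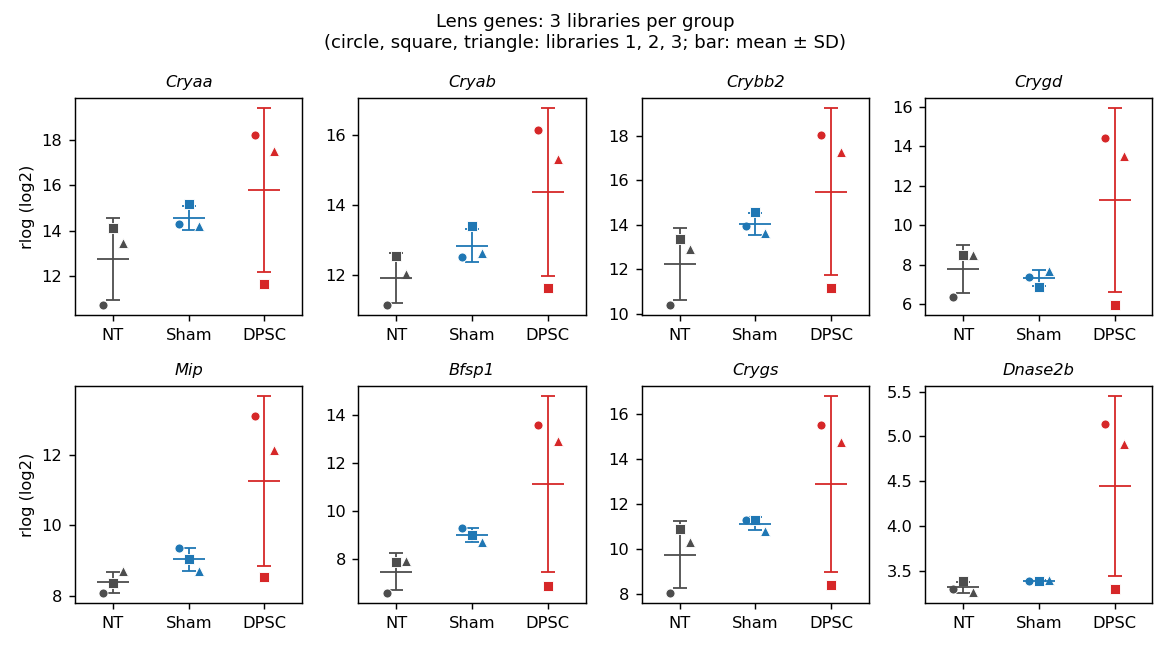
Levels (rlog, log2 scale) of 8 lens genes in the NT, Sham and DPSC libraries, 3 per group, with a symbol per library and a bar for the mean ± SD. In every panel DPSC 1 (circle) and DPSC 3 (triangle) lie far above the other libraries and DPSC 2 (square) lies below the Sham libraries; for Cryaa the 3 values are 18.21, 11.67 and 17.50.

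Only 9 genes with a symbol were higher over 2-fold without overlap. Hspb1 (ENSRNOG00000023546), which encodes the small heat shock protein HSP27, was at 10.01, 8.46 and 9.33 in DPSC and at 7.71, 7.96 and 7.87 in Sham, with NT at 6.78 to 7.25. The difference was 1.42 (SE 0.36, unadjusted p = 0.00584, adjusted p = 0.968). The calcium-binding proteins S100a4 and S100a6 followed the same order, S100a4 (ENSRNOG00000011821) at 11.05, 9.37 and 10.49 in DPSC against 8.71 to 9.0 in Sham, and S100a6 at 10.32, 8.62 and 9.56 against 7.85 to 8.41. In all 3 genes the order of the DPSC libraries was that of the lens genes, DPSC 1 the highest and DPSC 2 the lowest. The means of Hspb1, S100a4 and S100a6 were also above Sham (7.84, 8.82 and 8.16) in MSC (8.73, 9.58 and 8.74) and in MSCEPO (8.85, 9.84 and 9.41). Against the Sham mean the lens list stood at -0.94 to 0.97 in MSC and -1.52 to 1.98 in MSCEPO. The part of the lens material in these 3 genes was not tested. Tent5c, which encodes a poly(A) polymerase active in plasma cells, was at 7.69, 7.17 and 6.54 against 5.98 to 6.18, with another order of libraries.

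Other leading genes were uneven within a group. Rps20, listed for a ribosomal protein and possibly sharing reads with near-identical copies, was at 8.76 and 8.22 in DPSC 1 and 2 but at 4.22 in DPSC 3, beside 4.11 to 4.18 in Sham. Without DPSC 3 it differed by 4.35 (adjusted p = 0.00524), and with DPSC 3 by 2.93 (adjusted p = 0.968). Mcpt1, a mast cell protease, was at 8.72 in DPSC 2 and at 4.52 and 4.28 in the other DPSC libraries, beside 4.22 to 4.25 in Sham. Rfxapl1 was at 8.34, 7.87 and 7.99 in DPSC and at 5.34, 5.39 and 7.47 in Sham, and NT (7.04 to 7.82) lay near DPSC. The 2 higher genes without a symbol named by the rule were ENSRNOG00000034190 (2.41, and 0.77 without DPSC 2) and ENSRNOG00000045729 (1.56, and 1.71 without DPSC 2). The 2 lower ones were ENSRNOG00000028576 (-1.47) and ENSRNOG00000059050 (-2.38).

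Rod phototransduction genes were slightly lower in DPSC than in Sham, and both groups lay below NT. Gnat1 was at 16.76, 15.21 and 16.83 in DPSC 1, 2 and 3, at 16.98, 16.83 and 16.45 in Sham and at 17.91, 18.04 and 17.83 in NT. The DPSC and Sham ranges overlapped. The difference was -0.49 (SE 0.46, adjusted p = 0.968) with DPSC 2 and 0.041 without it. Pde6b, a catalytic subunit of the rod phosphodiesterase, differed by -0.37 (SE 0.22) and Sag, rod arrestin, by -0.51 (SE 0.24). Without DPSC 2 these 2 differences were -0.12 and -0.31. Guca1a, a calcium sensor that restores cyclic GMP after light, was at 12.20, 11.76 and 12.70 in DPSC and at 12.86, 12.64 and 12.62 in Sham, with NT at 13.12 to 13.28.

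Of the genes that end the rod response, Rgs9 and Grk1 separated the groups and the arrestin gene Sag overlapped. Rgs9 and Grk1 each had an adjusted p of 0.968. Rgs9, which speeds transducin back to rest, was at 12.21, 12.19 and 11.90 in DPSC and at 12.53, 12.30 and 12.54 in Sham (-0.36, SE 0.12, unadjusted p = 0.0206). Grk1, a kinase of the light response, was at 12.05, 11.56 and 12.06 against 12.37, 12.24 and 12.30 (-0.42, SE 0.15, unadjusted p = 0.0267). These were the 2 of 20 rod genes with all DPSC libraries below all Sham libraries, beside 5.07% of all genes. In all 20 rod genes the DPSC mean was the lower one, with a median difference of -0.30 that was -0.16 without DPSC 2, -0.31 without DPSC 1 and -0.40 without DPSC 3. Set against the Sham mean, the list's mean level was -0.20, -0.62 and -0.07 in DPSC 1, 2 and 3, from -0.07 to 0.11 in Sham and from 0.62 to 0.72 in NT.

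Cone genes and outer segment genes were mostly on the same side. Arr3 (ENSRNOG00000002904), cone arrestin, was at 9.62, 9.20 and 9.20 in DPSC and at 9.99, 9.81 and 10.29 in Sham, with NT at 10.26 to 10.66. The groups did not overlap, and the difference was -0.68 (SE 0.17, unadjusted p = 0.00504, adjusted p = 0.959). Of the 15 cone genes 10 means were lower. Arr3 alone had an unadjusted p under 0.05, beside 2.13% of all genes that were lower at that p. Opn1mw (-0.30) and Opn1sw (-0.29), the cone opsins, overlapped, and without DPSC 2 they differed by -0.10 and -0.41. Abca4 (ENSRNOG00000012892), the flippase of the outer segment discs that clears retinal from the membrane, had tight groups, at 13.78, 13.64 and 13.78 in DPSC, 14.11, 14.12 and 14.08 in Sham and 14.39, 14.48 and 14.48 in NT. All 3 groups were apart, and the difference to Sham was -0.37 (SE 0.10, unadjusted p = 0.00639, adjusted p = 0.968).

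**Figure D4:**
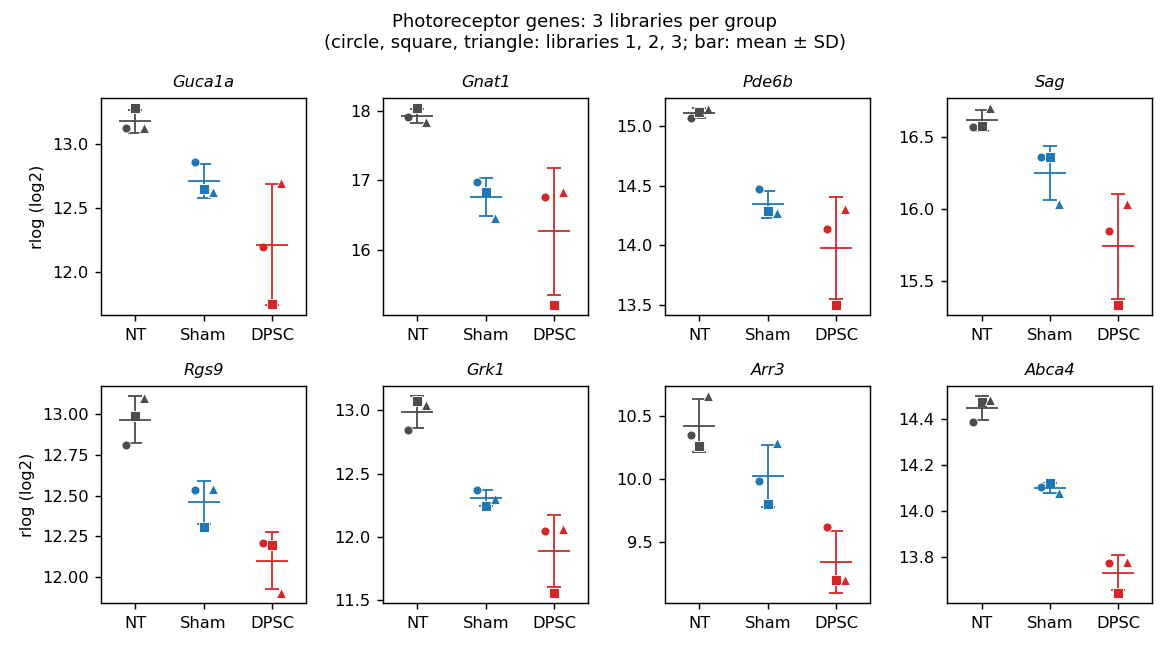
Levels (rlog, log2 scale) of 8 photoreceptor genes in the NT, Sham and DPSC libraries, 3 per group, with a symbol per library and a bar for the mean ± SD. NT lies highest in each panel by its mean, the DPSC and Sham points overlap for Guca1a, Gnat1, Pde6b and Sag, and they do not overlap for Rgs9, Grk1, Arr3 and Abca4 (13.64 to 13.78 in DPSC and 14.08 to 14.12 in Sham).

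Among 29 outer segment and cilium genes, 24 means were lower in DPSC, 4 of them without overlap (5.07% of all genes), with a median of -0.15 (-0.04 without DPSC 2). Ift140, a subunit of the transport machinery of the cilium, differed by -0.19 without overlap. Of the 12 photoreceptor transcription factors 9 means were lower. Mef2c (ENSRNOG00000033134), a factor that rods express with Nrl and Crx, was at 10.96, 10.85 and 11.01 in DPSC and at 11.48, 11.31 and 11.61 in Sham, with NT at 11.65 to 11.80 (-0.53, SE 0.10, unadjusted p = 0.00125, adjusted p = 0.522). Crx (-0.27) and Nrl (-0.28), which set photoreceptor and rod identity, overlapped between the groups. Without DPSC 2 they differed by -0.13 and -0.05. At the photoreceptor synapse 16 of 19 means were lower, by a median of -0.11, and the smallest p-values belonged to Elfn2 (-0.32) and Syp (-0.31).

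The inner retina differed little. Of 21 ON bipolar genes 18 means were lower (median -0.11), led by Lrit3, which helps assemble the postsynaptic channel of these cells, at 8.53, 8.58 and 8.59 in DPSC against 9.06, 8.84 and 9.03 in Sham (-0.41, SE 0.09, adjusted p = 0.819). Of 23 amacrine and horizontal cell genes 15 means were lower (median -0.09), of which Nos1 (-0.31), Lhx1 (-0.24) and Chat (-0.23) had no overlap, beside 5.07% of all genes. Of 25 ganglion cell genes 20 means were lower (median -0.13). The one of them that separated the groups was Sprr1a (-0.80, SE 0.18), an injury gene of neurons that cornified epithelia also make, at 4.04 to 4.24 in DPSC and 4.59 to 5.28 in Sham, which is near the minimum. The pigment epithelium list had 21 of 28 means higher (median 0.06), with no member under an unadjusted p of 0.05.

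Müller glia genes went both ways. Slc1a2, a glutamate transporter, was at 9.11, 9.24 and 9.26 in DPSC and at 9.51, 9.54 and 9.55 in Sham (-0.33, SE 0.08, adjusted p = 0.913). Aqp4, the water channel of the glial endfeet, was at 12.18, 12.53 and 12.36 in DPSC and at 12.08, 11.77 and 12.15 in Sham (0.36, SE 0.14). Vim, the intermediate filament vimentin, was at 14.34, 13.90 and 13.58 against 13.17, 13.57 and 13.42 (0.55, SE 0.21), and lens fibres make it too. None of these 3 genes overlapped between the groups, although for Vim the gap was small (13.58 in DPSC 3 and 13.57 in Sham 2).

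Gfap, the filament protein that glia make when reactive, stood at 12.71, 13.58 and 13.06 in DPSC and at 12.96, 13.53 and 12.80 in Sham, against 9.43 to 10.08 in NT. The difference was 0.02 (SE 0.27), its sign turned under several alternatives, and both groups lay far above NT. Of 35 reactive gliosis genes 24 means were higher, 7 without overlap (4.68% of all genes), with a median of 0.11 that was -0.10 without DPSC 2. Lcn2, the iron carrier lipocalin 2 of reactive astroglia, was at 10.96, 11.23 and 11.13 in DPSC and at 10.66 to 10.91 in Sham (0.31, SE 0.11). Cxcl10, a chemokine of the interferon response, was at 6.11, 6.71 and 6.45 against 5.78 to 5.97 (0.57, SE 0.17, unadjusted p = 0.0119). Tgm2, a crosslinking enzyme, went the other way, at 8.32 to 8.84 in DPSC and 9.07 to 9.70 in Sham (-0.80, SE 0.20).

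Leukocyte genes were higher on average, and most of that height came from DPSC 2. Ptprc, the common leukocyte antigen CD45, was at 9.80 in DPSC 2, at 7.97 and 7.42 in DPSC 1 and 3 and at 7.47 to 7.77 in Sham. Cd74, the chaperone of MHC class II, was at 13.52 in DPSC 2 and at 11.38 and 11.61 in the other DPSC libraries, with Sham at 11.39, 12.14 and 11.40. Its difference was 0.52 with DPSC 2 and -0.15 without it. The B cell gene Cd79a was at 7.07 in DPSC 2 and at 4.14 and 4.17 in DPSC 1 and 3, and the T cell gene Cd3e at 5.53 against 4.41 and 4.43, beside 4.0 to 4.34 for both in Sham. Mzb1, a chaperone of plasma cells, was at 7.35 against 4.68 and 5.08.

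The immune list medians were lower without DPSC 2. Of 35 microglia and macrophage genes 25 means were higher, with a median of 0.22 that was -0.12 without DPSC 2. The list's mean level against the Sham mean was -0.13, 0.96 and -0.21 in DPSC 1, 2 and 3 and from -0.25 to 0.25 in Sham. The medians of the complement list (0.16), the MHC class II list (0.09), the interferon list (0.17) and the neutrophil and mast cell list (0.19) were -0.09, -0.15, -0.02 and -0.03 without DPSC 2. For T and NK cells the median went from 0.25 to 0.06 and for B and plasma cells from 0.41 to 0.03. In NT the microglia list stood at -0.86 to -1.24 and the B and plasma cell list at -0.09 to -0.003.

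Some immune genes were higher in all 3 DPSC libraries than in every Sham library, beside 4.68% of all genes. They were 8 of 32 T and NK cell genes, 5 of 26 chemokine genes and 4 of 8 neutrophil and mast cell genes. Other immune lists had fewer such genes, with 3 of 43 interferon, 3 of 43 cytokine, 2 of 35 microglia and 2 of 23 complement genes. The MHC class I list had 2 of 21, the NF-κB list 2 of 30, the B and plasma cell list 1 of 18 and the MHC class II list 0 of 15. In the neutrophil and mast cell list, Mcpt1, Cpa3 and Ms4a2 were low and differed by 0.16, 0.05 and 0.08 without DPSC 2. Cpa3 stood at 3.906 in DPSC 3 and at 3.905 in Sham 3, and 4 of the 8 means of that list were lower in DPSC. Of the T and NK cell genes, Cd2, an adhesion receptor of these cells, was at 4.44, 5.31 and 4.28 in DPSC and at 3.96 to 4.05 in Sham, with a difference of 0.66 that was 0.34 without DPSC 2. Lat, an adaptor of the T cell receptor, was at 5.88, 5.92 and 5.75 against 5.34 to 5.68 (0.34, and 0.31 without DPSC 2). Il2rb (0.53), Nkg7 (0.26) and Cd3e (0.51) also had no overlap, and their differences without DPSC 2 were 0.30, 0.22 and 0.14. These levels are low, and none of these genes passed the test. The chemokine gene Ccl2 was higher by 0.33, and by 0.24 without DPSC 2. Fcgr3a, an Fc receptor of myeloid and NK cells, was at 7.64, 8.07 and 7.67 in DPSC and at 6.94, 7.39 and 6.82 in Sham (0.75, SE 0.19, adjusted p = 0.968). Cd163, the haemoglobin scavenger receptor of macrophages, was at 5.46, 5.27 and 4.91 against 4.46 to 4.85 (0.55, SE 0.17). C4a, a complement component whose reads may be shared with its near-identical copy, was at 8.30, 8.39 and 7.77 against 7.28 to 7.53 (0.75, SE 0.18, adjusted p = 0.959). Without DPSC 2 the differences of Fcgr3a, Cd163 and C4a were 0.61, 0.53 and 0.63. Of the 15 MHC class II genes 2 were lower without overlap, beside 5.07% of all genes, namely Rfxap (-0.47) and Ciita (-0.38), which regulate the transcription of the class II genes. Tnfaip3, which encodes the NF-κB inhibitor A20, was at 9.76, 9.55 and 9.97 in DPSC, 10.14 to 10.27 in Sham and 10.88 to 11.02 in NT (-0.46, SE 0.12).

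**Figure D5:**
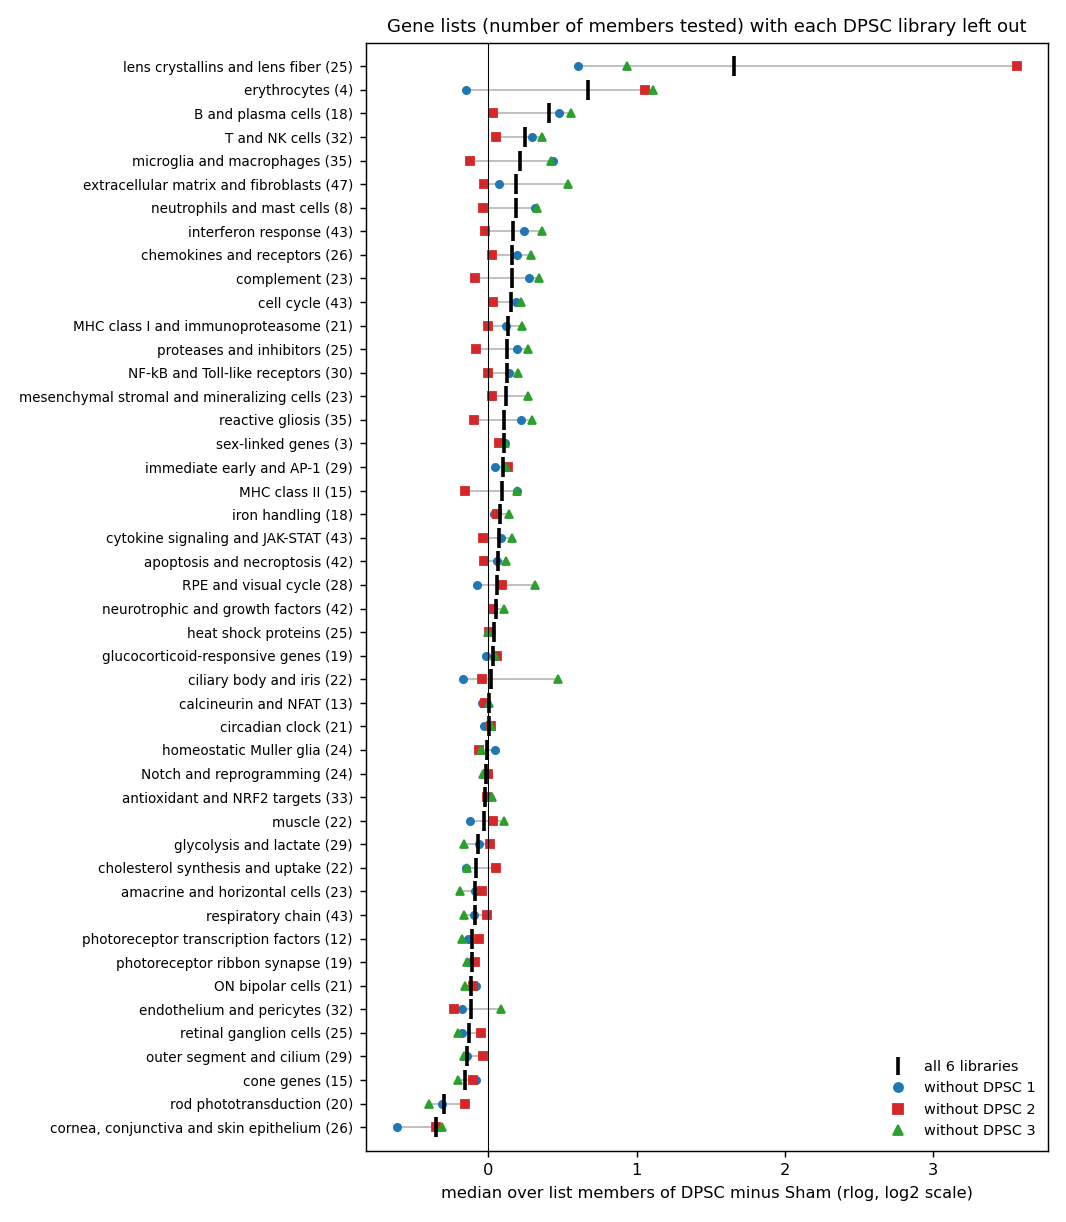
Median over the members of 46 gene lists of the DPSC minus Sham difference (rlog, log2 scale), with all 6 libraries (black bar) and with each DPSC library left out (circle, square and triangle for DPSC 1, 2 and 3), the number of members tested in brackets. The lens median moves from 1.66 to 3.57 and those of microglia and B and plasma cells to -0.12 and 0.03 when DPSC 2 is left out, and the surface epithelium median is the lowest of the black bars at -0.35.

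Genes of vessels, stroma and blood varied between the DPSC libraries. Of 32 endothelium and pericyte genes 23 means were lower (median -0.11, but 0.08 without DPSC 3). In 3 of the 32 every DPSC library lay below every Sham library, beside 5.07% of all genes, and in 1 above, beside 4.68%. Cldn5, the tight junction protein of retinal endothelium, was at 8.50, 8.43 and 8.12 in DPSC and 8.64 to 8.90 in Sham (-0.42, SE 0.13). Cd34 was at 5.95 to 7.05 against 7.10 to 7.39 (-0.77, SE 0.28). The gene that lay above was Mfsd2a (0.23, SE 0.10). Col5a2, a fibrillar collagen, was at 8.93, 9.22 and 8.65 against 7.95 to 8.40 (0.74, SE 0.18), and 38 of 47 matrix genes had higher means, with a median of 0.19 that was -0.03 without DPSC 2. The haemoglobin gene Hbb was at 9.58 in DPSC 1 against 7.10 and 7.22 in DPSC 2 and 3 and 6.57 to 7.86 in Sham. Acta2, smooth muscle actin, spread from 6.95 in DPSC 3 to 10.51 in DPSC 1. Myh6, a heavy chain of muscle myosin, was at 8.64, 7.72 and 8.23 in DPSC against 8.79, 9.29 and 9.32 in Sham (-0.94, SE 0.25). Muscle genes went both ways, with 14 of 22 means lower and 8 higher. In 2 every DPSC library lay below Sham and in 2 above, beside 5.07% and 4.68% of all genes. Ckm was higher without overlap (0.24, SE 0.10), and Tnnt3 was higher with overlap (0.44, SE 0.18).

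Growth factors, survival genes and stress genes gave small differences. Vegfa, the vascular growth factor, had tight groups at 12.42, 12.27 and 12.26 in DPSC and 11.94, 11.97 and 12.01 in Sham, with NT at 12.17 to 12.54. The DPSC libraries were all above Sham (0.34, SE 0.08, adjusted p = 0.935) and within the range of NT. Ngfr, the low-affinity neurotrophin receptor, was 0.24 higher (SE 0.09) and Cntf, a factor that supports photoreceptors, 0.41 higher (SE 0.19), both without overlap. Without DPSC 2 these differences were 0.21 and 0.20. In that list 27 of 42 genes had higher means (median 0.05). Hmox1, haem oxygenase 1, was at 8.15, 8.14 and 7.74 against 7.42 to 7.67 (0.45, SE 0.14), and Ftl1, the ferritin light chain, at 10.30 to 10.85 against 10.13 to 10.22 (0.40, SE 0.14). The antioxidant list as a whole was centred (14 higher and 19 lower of 33, median -0.02). Of 42 cell death genes, the promoter of apoptosis Bmf (-0.48) and its inhibitor Bcl2a1 (0.59) had the smallest p-values in each direction, and neither overlapped. Without DPSC 2 they differed by -0.56 and 0.32.

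Energy metabolism genes were a little lower. Of 43 respiratory chain genes 35 means were lower, with a median of -0.09 (-0.01 without DPSC 2), and Uqcrc1, a core subunit of complex III, had the smallest p (-0.30, SE 0.12). Of 29 glycolysis genes 19 were lower (median -0.07, 0.02 without DPSC 2), and Hk1, the neuronal hexokinase, was at 11.91 to 12.11 in DPSC and 12.14 to 12.50 in Sham. The lists tied to the immunosuppressive drugs were centred near 0. The median was 0.03 over 19 glucocorticoid-responsive genes and 0.009 over 13 calcineurin and NFAT genes, and it was 0.003 over 21 clock genes. With 3 against 3 libraries these medians do not show that the drugs had no effect. Dexamethasone was given before surgery and the retinas are labelled day 31, so the glucocorticoid list could not show an effect at the time of dosing.

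Against the other cell-treated groups, DPSC had no gene that passed the test either. Of 15459 genes tested against MSC 0% passed, although 405 genes (2.62%) were over 2-fold lower in DPSC and 52 (0.336%) higher, and 97 higher and 402 lower had an unadjusted p under 0.05. Of 15441 tested against MSCEPO 0% passed, with 53 (0.343%) over 2-fold lower and 47 (0.304%) higher, and 75 and 76 genes had an unadjusted p under 0.05. Krt12 was again the leading marker gene against MSC, at a mean of 6.51 in DPSC and 9.0 in MSC (-2.49, SE 0.25, adjusted p = 0.198), with no overlap. Against MSCEPO the difference of Krt12 was 0.13 (SE 0.30).

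The immune lists were lower in DPSC than in MSC. All 19 B and plasma cell genes tested there, 34 of 35 microglia and macrophage genes and 14 of 15 MHC class II genes had lower means, with medians of -1.15, -1.07 and -1.21. MSC 1 carried much of this, and without it the medians were -0.70, -0.61 and -0.61. The microglia list stood at 2.27, 1.08 and 0.58 in MSC 1, 2 and 3 against the Sham mean, so that DPSC 2 (0.96) lay above MSC 3. Cd3e was lower without overlap (-2.48, SE 1.02, unadjusted p = 0.0492). Against MSCEPO the B and plasma cell, microglia and MHC class II lists were lower too, in 16 of 18, 33 of 35 and 14 of 15 means. Their medians were -0.38, -0.48 and -0.53, and without MSCEPO 1 they were -0.10, -0.29 and -0.41. The rod genes had 18 of 20 means higher than in MSC (median 0.27, 0.45 without DPSC 2) and 20 of 20 higher than in MSCEPO (median 0.49), and Gnat1 was 0.65 (SE 0.46) and 0.88 (SE 0.58) higher. Crx differed from MSCEPO by 0.54 (SE 0.20, unadjusted p = 0.0318) and Esrrb, a nuclear receptor that rods need, by 1.03 (SE 0.30, unadjusted p = 0.0128), both without overlap but with an adjusted p of 1. These comparisons share the DPSC libraries with the one against Sham.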

How the data were processed

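mRNA of 15 retinal samples was sequenced. The deposited values are on a log2 scale: the authors estimated transcript abundance with Salmon (version 1.1.0 in the submitters' processing notes, genome build Rnor_6.0), summed it to genes and applied the DESeq2 regularized log transform (rlog) to all samples. Counts were not used here, so the depth, and the precision it gives, is unknown; a fold change on rlog values is shrunken for low genes. The table of the whole series, with 15 more columns of per-sample values, was not used.

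The 6 DPSC and Sham libraries were compared with limma 3.58.1 (R 4.3.3; moderated test, variance trend, Benjamini-Hochberg adjustment) on the rlog values as deposited, over genes whose mean was at least the log2 of about 10 normalized counts. A gene passed at an adjusted p under 0.05 and an absolute difference over 1. The same fit was made against MSC and MSCEPO. The code was tested on simulated data. Groups came from the sample titles. The gene lists (46 lists, 1229 genes, of which 1172 were in the table and 1088 tested) and the members described were chosen with earlier results of these data known. A list gene paired with several identifiers took the one with the highest mean. Among all 20375 genes listed, on a list or not, 146 symbols had several identifiers.

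Genes were named by a rule: up to 12 per direction with a symbol that passed or, where too few did, differed over 2-fold without overlap, ordered by p; up to 4 per list by p; reference markers of retinal and other cell types; passing genes against MSC and MSCEPO; and up to 2 genes per direction without a symbol. Krt13, Elf3, Dsp, Bfsp1, Crygs and Acta2, and the genes that passed only under an alternative, were chosen after their values were seen. Alternatives were all 15 libraries in one fit, other filters, a replicate block, median centring, quantile normalization, array weights, no variance trend and each library left out. The list medians against MSC and MSCEPO with a library left out were added after seeing the data. Promoters were from RefSeq (GRCr8); the first listed was used for a gene with several.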

Additional observations from a re-analysis of the deposited data

How the results depend on the processing

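The count of 0 genes on either side between DPSC and Sham remained 0 without a filter, with the filter in every library, with median centring, with quantile normalization, without the variance trend and by adjusted p alone. With all 15 libraries in one fit 2 genes were lower (Krt75 and RGD1560925), and array weights gave 2 higher and 8 lower. With one library left out the counts ran from 0 to 23 higher and from 0 to 2 lower. The 23 and 2 came without DPSC 2, and 1 and 1 (Rps20 and Muc4) without DPSC 3. Against MSC, array weights gave 654 genes and leaving out a library gave 0 to 2 (2 without MSC 1, Asb15 and Rnf113a1, and 1 without DPSC 2, Tnks2). Against MSCEPO array weights gave 273 genes. In both fits against other cells the weights stopped before they converged.

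The replicate numbers did not pair the samples. The deviations of same-numbered DPSC and Sham libraries correlated at -0.18, -0.02 and -0.44, and with the replicate block 0 genes were higher and 0 lower. Of 70 named differences, Gnat1 turned to 0.041 without DPSC 2 and ran from -0.77 to 0.041 with a library left out. Cd74 turned to -0.15 without DPSC 2 (from -0.15 to 0.92 with a library left out) and to 0.00 with array weights. Gfap turned to -0.013 with quantile normalization and to -0.22 with array weights, and to -0.049, -0.13 and -0.21 without Sham 1, Sham 3 and DPSC 2, in a range of -0.21 to 0.24. The other 67 kept their direction under every alternative run. The depth of the libraries is unknown, and 3 libraries per group with a DPSC 2 unlike the others limit what could be detected.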
